A study of Mus musculus with 8 samples.

Results

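The genes of adult hemoglobin and of the red cell were compared between secretory and maturation stage enamel organs of mouse first molars. They were taken by gene name from the deposited table of read counts, and comprise the globin genes Hbb-bs, Hbb-bt, Hba-a1 and Hba-a2 and the erythroid genes Alas2, Slc4a1 and Bpgm. These are 7 of the 54532 genes in the table, and all 7 were among the 16440 genes with enough counts to be tested. Enamel organs, the epithelial tissue that forms enamel, were dissected at P5 (postnatal day 5, secretory stage) and at P12 (postnatal day 12, maturation stage). All pups were untreated wt mice of the C57BL/6 strain. Each library was made from polyadenylated RNA of a pool of 5 mice, with 4 libraries at each age (P5 libraries 1, 3, 4 and 5 and P12 libraries 1 to 4), so that the spread given here is that between pools and p-values measure no other spread. Molars were microdissected and their pulp chambers cleared of soft tissue, and no step to remove blood is described in the sources used here.

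Hemoglobin carries oxygen in red cells as a tetramer of alpha-type and beta-type globin chains, each holding a heme. Hba-a1 and Hba-a2 encode the adult alpha chain in mice, and Hbb-bs and Hbb-bt encode adult beta chains of the C57BL/6 strain. Alas2 encodes the erythroid form of 5-aminolevulinate synthase, the first enzyme of heme synthesis. Slc4a1 encodes band 3, the anion exchanger of the red-cell membrane, and Bpgm encodes bisphosphoglycerate mutase, which makes the 2,3-bisphosphoglycerate that lowers the oxygen affinity of hemoglobin. Mammalian red cells lose their nucleus late in development, and young red cells in the blood (reticulocytes) still hold globin mRNA. Globin mRNA in a dissected tissue can come from its blood vessels or from neighbouring bone marrow as well as from its own cells.

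Total counts ranged from 16574548 to 20262601 in the P5 libraries and from 17588152 to 22013456 in the P12 libraries. A normalized count is a count scaled by TMM to an effective library size of 19006280, the mean of the 8 libraries. Enam, an enamel matrix gene that marks secretory ameloblasts, had a mean normalized count of 589755 at P5 and 598 at P12, so that the libraries matched their labelled stages. Amelx and Ambn, 2 other matrix genes, fell by 5.74 and 2.57 on the log2 scale. The collagen gene Col1a1, a mesenchymal marker, had a mean normalized count of 620261 at P5 and 488824 at P12, so that RNA from outside the epithelium was present at both ages. Col1a2 fell by 0.36 (0.02 with total count scaling) and Col3a1 rose by 3.64 on the log2 scale. P5 library 5 stood apart from the other P5 libraries. It was the lowest P5 library for 7 of the 7 genes described here and for 33 of 39 other red-cell genes of 3 lists (membrane, transcription factors and maturation), against 30.0% of all genes tested. P12 library 4 was the lowest P12 library for 6 of the 7 and for 31 of the 39, against 34.3% of all genes tested. It was also the lowest for 4 of 4 mesenchymal, 9 of 13 neutrophil and 6 of 8 macrophage genes, but for 1 of 8 enamel epithelium genes. P5 library 5 was also the lowest P5 library for 7 of 8 enamel epithelium genes, 7 of 7 B lymphoid genes and 5 of 6 platelet genes. Such ranks do not give the size of the gap, which was small for Amelx (2621872 against 2631322 in P5 library 3). For genes of maturation stage ameloblasts, named here after their values were seen, P5 library 5 had normalized counts of 703 (Klk4), 5149 (Amtn) and 6497 (Odam), against at least 2586, 16356 and 15868 in the other P5 libraries. The part of these differences in the values below was not tested. Calls of named genes that were lost without P5 library 5 are given beside their values.

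The globin genes lie in clusters of near-identical copies, and the sequences below show how little separates the members of a pair. In GRCm38 coordinates, Hbb-bs (ENSMUSG00000052305) lies on chromosome 7 from 103826534 to 103828096 and Hbb-bt (ENSMUSG00000073940) on the same chromosome from 103812524 to 103813996, both on the reverse strand. Hba-a1 (ENSMUSG00000069919) lies on chromosome 11 from 32283511 to 32284465 and Hba-a2 (ENSMUSG00000069917) from 32296489 to 32297298, both on the forward strand. All 4 are protein-coding genes, and no exonic base of theirs (0.0%) lies in an exon of another gene. The coding sequences of Hba-a1 and Hba-a2 in GENCODE M21 differ at 1 of 426 bases (C381T, counted from 1 at the start codon), and those of Hbb-bs and Hbb-bt at 1 of 441 (C417T). The stretches of coding sequence around these bases are printed from positions 351 to 410 (Hba) and 382 to 441 (Hbb), with the base that differs in capitals:
Hba-a1: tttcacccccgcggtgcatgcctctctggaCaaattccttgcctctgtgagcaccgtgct
Hba-a2: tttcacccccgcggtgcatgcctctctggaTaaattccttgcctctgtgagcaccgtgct
Hbb-bs: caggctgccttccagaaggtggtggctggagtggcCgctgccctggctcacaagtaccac
Hbb-bt: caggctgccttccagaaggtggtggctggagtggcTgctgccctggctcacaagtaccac

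Reads of such genes can only be assigned to a copy where they reach a base that differs, which lies mainly outside the coding sequence. Of the 100-base windows along the annotated transcripts, 63.3% of those in Hba-a1 also occur in Hba-a2 and 79.5% of those in Hba-a2 also occur in Hba-a1. The corresponding shares were 49.7% for Hbb-bs and 54.8% for Hbb-bt. How the counting treated reads that fit both copies is not given in the sources used here, so values of single copies are uncertain and each pair is also given as a sum. Slc4a1 and Bpgm share no such window with another gene (0.0%).

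Adult globin mRNA was lower at P12 for Hba-a1 and Hbb-bt, while Hbb-bs and Hba-a2 did not pass the test. Of the 7 genes, 1 was higher at P12 (Bpgm), 2 were lower and 4 did not pass the test (quasi-likelihood test of edgeR, p-values adjusted over all genes tested after Benjamini and Hochberg, threshold 0.05). Among all genes tested, 28.8% were higher and 28.4% lower in the same fit, so that the calls among the 7 came at about the rate of the whole table. Scaling by total count alone in place of TMM moved the median over all genes from 0.01 to 0.38 on the log2 scale and gave 54.0% of genes as higher and 14.2% as lower. Under that scaling 2 of the 7 were higher (Hba-a2 and Bpgm) and 0 were lower. Without P5 library 5, the TMM fit called 0 higher and 4 lower (Hbb-bs, Hbb-bt, Hba-a1 and Alas2), against 27.0% and 26.6% of all genes tested in that fit. In bulk tissue, fewer cells of a type and less RNA per cell cannot be told apart.

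**Figure D1:**
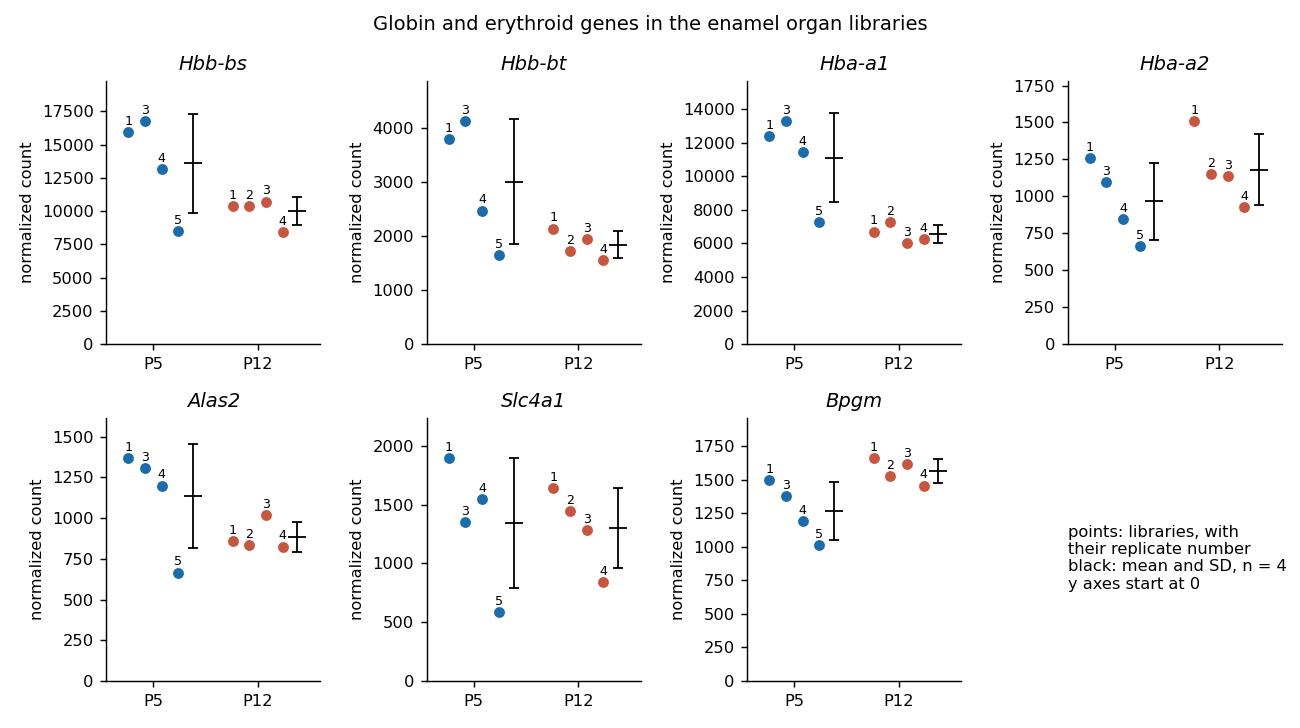
Normalized counts of the 7 genes by library (y axes, each starting at 0) at P5 and P12 (x axes), with replicate numbers over the points and the mean and SD of the 4 libraries in black. P5 library 5 is the lowest P5 point in every panel, and only Hba-a1 has no overlap between the ages.

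Hbb-bs was the most abundant of the 7. At P5 its normalized counts were 15925, 16752, 13136 and 8495 (libraries 1, 3, 4 and 5, the order kept below), and at P12 they were 10390, 10367, 10718 and 8421 (libraries 1 to 4). The first 3 of these P5 libraries lay above every P12 library, and P5 library 5 lay at the level of the lowest P12 library, so that the ages overlapped. The P5 mean was 13577 ± 3724 (SD, n = 4) and the P12 mean 9974 ± 1048 (SD, n = 4). The log2 fold change was -0.44 (SE 0.18, 95% interval -0.84 to -0.05, edgeR adjusted p = 0.052), and the exact permutation test over the 70 ways to divide the libraries gave a two-sided p of 0.114. DESeq2, the test named in the study's methods, gave -0.44 with an adjusted p of 0.029. Without P5 library 5 the edgeR log2 fold change was -0.62 (adjusted p = 0.00097).

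Hbb-bt, the second beta gene, was called lower at P12. Its normalized counts were 3794, 4126, 2470 and 1648 in the P5 pools and 2139, 1720, 1948 and 1558 in the P12 pools. P5 library 5 fell inside the P12 range and the other 3 P5 libraries lay above it. The mean fell from 3010 ± 1156 to 1841 ± 255 (SD, n = 4 each), a log2 fold change of -0.71 (SE 0.24, edgeR adjusted p = 0.024, exact permutation p = 0.143). The call was lost without P12 library 2, P5 library 1 or P5 library 3 (adjusted p 0.059, 0.074 and 0.083 in edgeR), and without P5 library 5 the log2 fold change was -0.92 (adjusted p = 0.0011). With Hbb-bs and Hbb-bt summed to 1 feature, the log2 fold change was -0.49 (SE 0.19, edgeR adjusted p = 0.044).

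Hba-a1 had the lowest adjusted p of the 7 genes. Its normalized counts were 12386, 13274, 11429 and 7285 in the P5 pools and 6695, 7251, 6030 and 6255 in the P12 pools. Every P12 library lay below every P5 library, although the gap between P5 library 5 and P12 library 2 was small. It was the only one of the 7 without overlap between the ages, where 26.0% of all genes tested were higher and 26.6% lower at P12 with no overlap. The mean fell from 11094 ± 2648 to 6558 ± 539 (SD, n = 4 each), a log2 fold change of -0.76 (SE 0.16, 95% interval -1.10 to -0.41, edgeR adjusted p = 0.0016). The exact permutation test gave a two-sided p of 0.0286, the smallest that 4 libraries against 4 allow. Leaving out each library in turn kept the edgeR adjusted p between 1.2e-05 and 0.0074, and total count scaling gave -0.38 (adjusted p = 0.051), which lies below the all-gene median of 0.38 with that scaling.

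Hba-a2, the second alpha gene, was not called, and its mean was higher at P12. Its normalized counts were 1257, 1097, 845 and 664 in the P5 pools and 1509, 1149, 1137 and 928 in the P12 pools, with overlap between the ages. The P5 mean was 966 ± 263 (SD, n = 4) and the P12 mean 1181 ± 241 (SD, n = 4). The log2 fold change was 0.29 (SE 0.19, 95% interval -0.12 to 0.71, edgeR adjusted p = 0.21). Without P5 library 5 it was 0.14 (adjusted p = 0.50), and with total count scaling 0.67 (adjusted p = 0.011). With Hba-a1 and Hba-a2 summed to 1 feature, the log2 fold change was -0.64 (SE 0.16, edgeR adjusted p = 0.0045), so that the alpha pair as a whole was lower at P12 with TMM scaling.

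**Figure D2:**
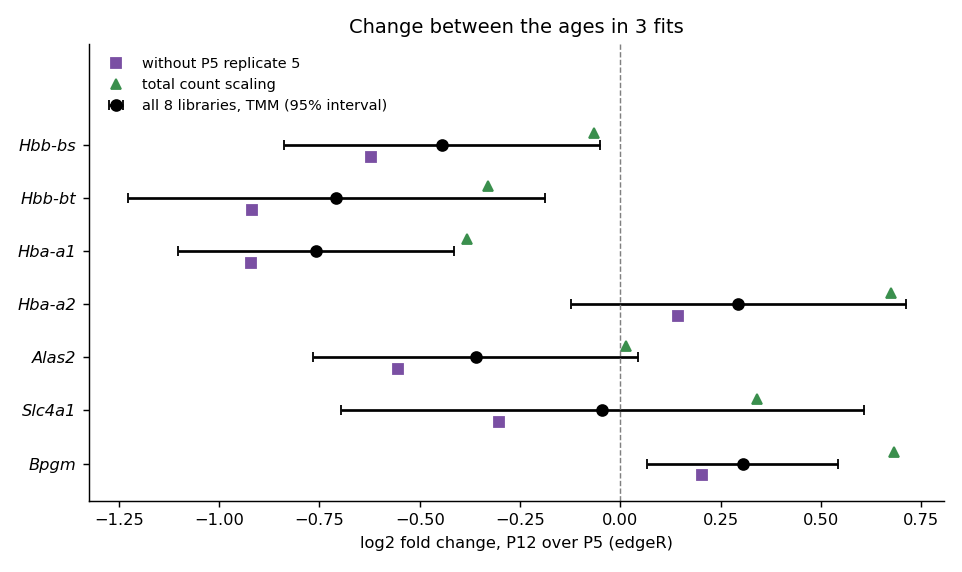
Log2 fold change of each gene, P12 over P5, from edgeR (x axis), for all 8 libraries with TMM scaling and its 95% interval (circles), without P5 library 5 (squares) and with total count scaling (triangles). Without P5 library 5 each value lies lower, and with total count scaling each lies higher, from -0.38 for Hba-a1 to 0.68 for Bpgm.

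Together the 4 adult globin genes took 0.0844% to 0.164% of a P5 library's counts and 0.0972% to 0.129% of a P12 library's. The 95% binomial interval (Wilson) of a library's share reached at most 0.0019 percentage points to either side. Intervals and floors here cover counting error alone, because no molecular identifiers are described for the reads. The ages overlapped in this share. A library's 20 most abundant genes took 34.1% to 35.7% of its counts at P5 and 16.8% to 19.0% at P12. All other genes thus divided a larger part of the counts at P12, and shares are not a measure of level free of this shift. Per kilobase of the deposited gene length, the order of mean levels at P5 was Hbb-bs (17678 normalized counts per kilobase), Hba-a1 (13662), Hbb-bt (4281), Hba-a2 (1448), Alas2 (473), Bpgm (354) and Slc4a1 (275). At P12 the means per kilobase were 12987, 8076, 2619 and 1770 for the globins in that order, then 437 for Bpgm, 368 for Alas2 and 266 for Slc4a1. Neighbours in this order whose ranges over libraries overlapped were Hbb-bs and Hba-a1 at P5, Hbb-bt and Hba-a2 at P12, Alas2 and Bpgm at both ages, and Bpgm and Slc4a1 at P5. Within single libraries, each of these pairs kept the order of its means at that age, except Alas2 and Bpgm in P5 library 5 (277 and 282 per kilobase).

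Ratios of genes within a library do not depend on the scaling of libraries, and 6 were compared. The ratio of Hba-a2 to Hba-a1 counts was 0.102, 0.0826, 0.0739 and 0.0911 at P5 and 0.225, 0.158, 0.189 and 0.148 at P12. Every P12 library had a higher ratio than every P5 library, P5 library 5 included. On the log2 scale the difference was 1.04 (95% interval 0.63 to 1.44, exact permutation test, two-sided p = 0.0286, or 0.0857 after Benjamini-Hochberg adjustment over the 6 ratios, so that it fails the correction). Leaving out each library in turn gave differences between 0.92 and 1.12. This ratio rests on the assignment of reads between copies that share most of their sequence, and the part of that assignment in the difference was not tested.

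The beta pair and the alpha to beta balance showed no such separation. The ratio of Hbb-bt to Hbb-bs was 0.188 to 0.246 at P5 and 0.166 to 0.206 at P12 (log2 difference -0.22, 95% interval -0.51 to 0.07, exact permutation p = 0.143, adjusted p = 0.206). The summed alpha genes had 0.688 to 0.786 of the counts of the summed beta genes at P5 and 0.566 to 0.72 at P12. That log2 difference was -0.17 (95% interval -0.39 to 0.06, exact permutation p = 0.171, adjusted p = 0.206). These intervals reach from a rise of 0.07 and 0.06 to a fall of 0.51 and 0.39 on the log2 scale. Equal ratios at the ages were thus not shown.

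**Figure D3:**
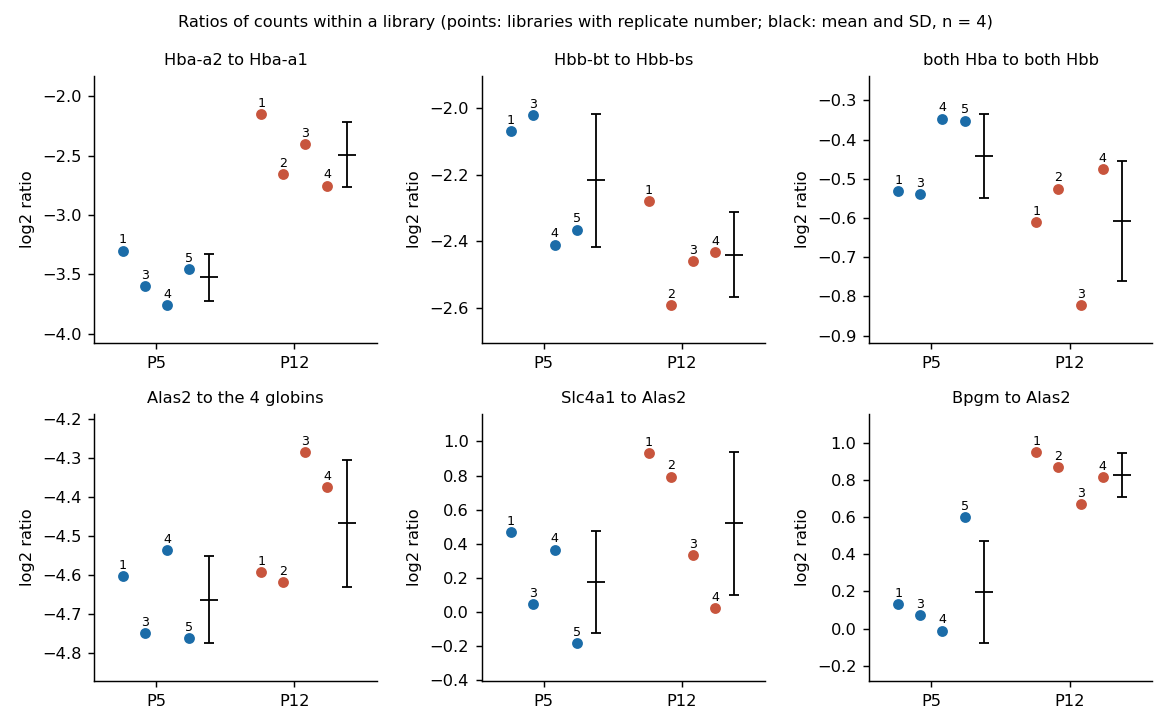
Log2 ratio of counts within each library (y axes) at P5 and P12 (x axes) for 6 ratios of the 7 genes, with replicate numbers over the points and the mean and SD of the 4 libraries in black. The ages are separate for Hba-a2 to Hba-a1 and for Bpgm to Alas2, and overlap in the other 4 panels.

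Alas2 (ENSMUSG00000025270, chromosome X, 150547375 to 150570638, forward strand of GRCm38) showed the same low value in P5 library 5 as the globins. Its normalized counts were 1370, 1309, 1200 and 666 in the P5 pools and 859, 833, 1017 and 825 in the P12 pools. The other 3 P5 libraries lay above all P12 libraries, and P5 library 5 lay below them. The mean was 1136 ± 322 at P5 and 883 ± 89.9 at P12 (SD, n = 4 each), with a log2 fold change of -0.36 (SE 0.18, 95% interval -0.77 to 0.04, edgeR adjusted p = 0.115). Without P5 library 5 it was -0.56 (edgeR adjusted p = 0.00043), and with total count scaling 0.01. Relative to the 4 globins, Alas2 did not separate the ages (0.0368 to 0.043 Alas2 counts per globin count at P5, 0.0407 to 0.0513 at P12, log2 difference 0.20, 95% interval -0.05 to 0.44, exact permutation p = 0.143). Exons of genes on the opposite strand cover 15.5% of its exonic bases, mainly the DNA repair gene Apex2, and whether the counting used strand is not given in the sources used here. Apex2 itself had 163 to 233 counts at P5 and 160 to 224 at P12, against 629 to 1171 Alas2 counts at P5 and 822 to 1172 at P12.

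Slc4a1 (ENSMUSG00000006574, chromosome 11, 102348824 to 102366203, reverse strand) varied widely between pools at both ages. Its normalized counts were 1897, 1353, 1546 and 587 in the P5 pools and 1637, 1444, 1280 and 837 in the P12 pools. P5 library 5 and P12 library 4 were the lowest of their ages, and the remaining 6 libraries of both ages lay in the same range. The P5 mean was 1346 ± 554 (SD, n = 4) and the P12 mean 1299 ± 341 (SD, n = 4). The log2 fold change was -0.05 (SE 0.30, 95% interval -0.70 to 0.61, edgeR adjusted p = 0.91), and the width of that interval leaves changes of up to 0.70 on the log2 scale undetected at this spread. It was -0.30 without P5 library 5 (edgeR adjusted p = 0.22) and 0.34 with total count scaling (adjusted p = 0.34). Per Alas2 count, Slc4a1 had 0.882 to 1.38 counts at P5 and 1.01 to 1.91 at P12 (log2 difference 0.34, 95% interval -0.29 to 0.97, exact permutation p = 0.286).

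Bpgm (ENSMUSG00000038871, chromosome 6, 34476207 to 34505613, forward strand) was the only one of the 7 called higher at P12. Its normalized counts were 1500, 1376, 1190 and 1011 in the P5 pools and 1664, 1526, 1619 and 1457 in the P12 pools. P5 library 1 lay just above P12 library 4, and all other P12 libraries lay above the P5 libraries. The mean rose from 1269 ± 214 to 1567 ± 93.0 (SD, n = 4 each), a log2 fold change of 0.30 (SE 0.11, edgeR adjusted p = 0.031, exact permutation p = 0.0571). The call was lost when P12 library 1, 2 or 3 or P5 library 4 or 5 was left out (edgeR adjusted p between 0.053 and 0.089), and it held with total count scaling at 0.68 (adjusted p = 0.00028). Per Alas2 count, Bpgm had 0.992 to 1.52 counts at P5 and 1.59 to 1.94 at P12, without overlap (log2 difference 0.63, 95% interval 0.26 to 1.0, exact permutation p = 0.0286, adjusted p = 0.0857 over the 6 ratios). P5 library 5 had the highest of the P5 values, 1.52, since its Alas2 count was lower relative to the other P5 libraries than its Bpgm count.

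The 7 genes differed in how far P5 library 5 fell below the other P5 libraries. Relative to the mean of those 3 libraries, its normalized count was 0.367 for Slc4a1, 0.476 for Hbb-bt, 0.515 for Alas2, 0.556 for Hbb-bs, 0.589 for Hba-a1, 0.622 for Hba-a2 and 0.746 for Bpgm. The median over all genes tested was 1.0. The same ratio had a median of 0.523 over 14 red-cell membrane genes and of 0.674 over 9 erythroid transcription factors, and of 1.19 over 8 endothelial genes. P12 library 4, relative to the other P12 libraries, ranged from 0.576 for Slc4a1 to 0.939 for Hba-a1, with a median of 0.679 over the membrane genes and 0.994 over the endothelial genes. Most of these red-cell genes were thus low in the same pools. The same ratio for P5 library 5 had a median of 0.331 over 7 B lymphoid genes, 0.587 over 6 platelet genes and 0.85 over 13 neutrophil genes. For P12 library 4 that median was 0.628 over the B lymphoid genes and 0.831 over the neutrophil genes. It was 0.809 over 8 macrophage genes and 0.812 over 4 mesenchymal genes, but 0.921 over the platelet genes and 1.67 over 8 enamel epithelium genes. Low values in these 2 libraries were thus not confined to red-cell genes.

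**Figure D4:**
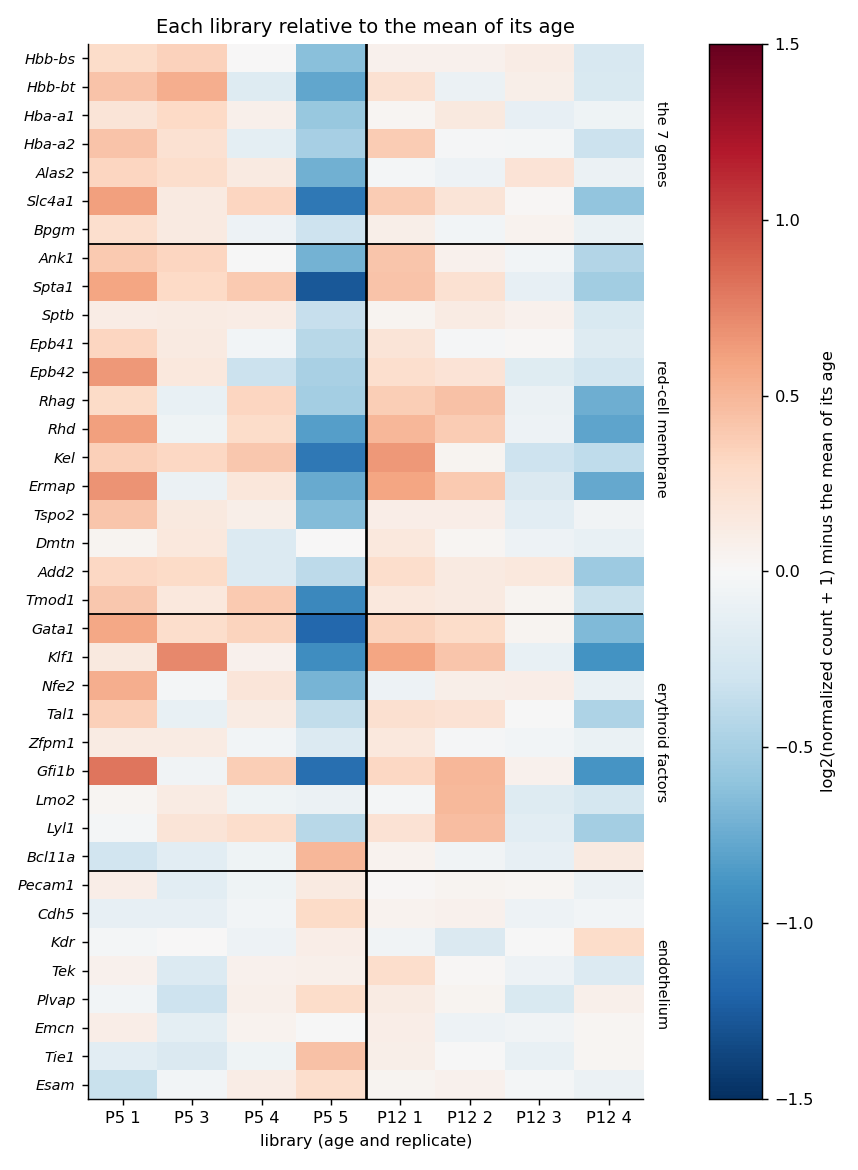
Log2(normalized count + 1) of each gene (rows) in each library (columns) minus the mean of its age, for the 7 genes, 13 of the 14 red-cell membrane genes, 9 erythroid transcription factors and 8 endothelial genes. P5 library 5 is blue (below its age) for nearly all red-cell genes, with Bcl11a above it and Dmtn near it, and P12 library 4 is paler blue for most.

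Genes most like the globins across the 8 libraries were sought by Pearson's r with the mean log2 normalized count of the 4 globins, among 11338 other genes with a mean normalized count of at least 100. The highest values were 0.979 for Parp8, 0.96 for Mrpl47, 0.959 for Ank1, 0.945 for Cpz and 0.943 for Pck2. Of these, only Ank1 is in a red-cell list used here. Ank1 encodes the ankyrin that ties the red-cell membrane to its skeleton, and its normalized count was 243 ± 74.3 at P5 and 187 ± 45.4 at P12 (SD, n = 4 each). Of the other 3 genes, Alas2 reached 0.911, Slc4a1 0.738 and Bpgm 0.22. Each r runs over both ages, so that it also takes in differences between the ages, such as the higher Bpgm mean at P12. Within each age, Bpgm and the globin mean were both lowest in the same library (P5 library 5 and P12 library 4). These values describe 8 libraries of which P5 library 5 lies far from the other P5 libraries, and they carry no test.

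The remaining globin genes were at or near 0. Of the 8 listed (Hbb-bh0, Hbb-bh1, Hbb-bh2, Hbb-bh3, Hbb-y, Hba-x, Hbq1a and Hbq1b), 5 had 0 counts in every library. Counting error sets a floor of 3 counts per library, or 0.136 to 0.181 CPM. Hbb-y had 6 and 2 counts in P5 libraries 3 and 5 and 0 in the others. Hbq1b, a theta globin gene, had counts of 35, 33, 21 and 28 at P5 and 29, 9, 18 and 9 at P12. Its normalized counts did not overlap between the ages, and it was lower at P12 with a log2 fold change of -1.32 (SE 0.35, edgeR adjusted p = 0.0069). Cygb, which encodes the heme protein cytoglobin of fibroblasts and other non-erythroid cells, fell from 1325 ± 96.3 to 211 ± 13.6 (SD, n = 4 each), a log2 fold change of -2.65 (edgeR adjusted p = 1e-09). The globins of muscle (Mb) and nerve cells (Ngb) had mean normalized counts of 12.3 and 12.9 at P5 and 9.89 and 7.52 at P12 and did not pass the test.

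The genes of heme synthesis other than Alas2 did not move as a group. Of 12 tested, 1 was higher, 4 were lower and 7 did not pass the test, with a median log2 fold change of 0.08 (0.01 over all genes). The 3 most abundant did not pass the test in edgeR. The log2 fold change was 0.00 for Fech, the ferrochelatase that inserts iron into the ring (adjusted p = 0.98), 0.17 for Tmem14c, a mitochondrial protein of porphyrin transport (adjusted p = 0.053), and -0.18 for Cpox, the coproporphyrinogen oxidase (adjusted p = 0.10). The 5 called genes, named here after their values were seen, were Ppox (-0.62), Uros (-0.55), Alad (-0.39) and Slc25a38 (-0.34) among the lower and Abcb10 (0.40) as the higher one. With total count scaling the counts were 7 higher and 1 lower, and Slc25a38 turned to 0.04. For this list and those below, the shares over all genes tested were 28.8% higher and 28.4% lower with TMM scaling. With total count scaling these shares were 54.0% and 14.2%, and without P5 library 5 they were 27.0% and 26.6%.

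Red-cell membrane genes were measured alongside Slc4a1. Of 14 tested, 1 was higher, 3 were lower and 10 did not pass the test, with a median log2 fold change of 0.04. Rhag, the Rh-associated glycoprotein, rose by 0.78 on the log2 scale (edgeR adjusted p = 0.034). Sptb, the erythroid beta spectrin, fell by 0.41 on the log2 scale (edgeR adjusted p = 0.011), Dmtn (dematin) by 0.29 (adjusted p = 0.038) and Add2 (beta adducin) by 1.38 (adjusted p = 0.00012). With total count scaling Sptb was at -0.03 and Dmtn turned to 0.09. When P5 library 5 was left out, Rhag (0.62, edgeR adjusted p = 0.095) and Dmtn (-0.29, adjusted p = 0.059) were not called, and the list had 0 higher and 3 lower. Spectrin, dematin and adducin genes are also known from other cells. Epb41 (protein 4.1), the most abundant of the list, had a log2 fold change of 0.08 (edgeR adjusted p = 0.64).

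Among 9 erythroid transcription factors, 2 were higher, 1 was lower and 6 did not pass the test, with a median log2 fold change of 0.41. The factors most specific to the lineage were present at low levels. Gata1, the master regulator of erythroid genes, had mean normalized counts of 35.6 at P5 and 46.6 at P12 (log2 fold change 0.41, SE 0.36, edgeR adjusted p = 0.35), and Klf1, which activates adult beta globin, had 60 and 75.5 (0.34, SE 0.37, adjusted p = 0.45). The called genes are also expressed outside the lineage. Lmo2, which is active in endothelium too, rose from 211 to 769 (log2 fold change 1.87, edgeR adjusted p = 1.9e-06), Zfpm1 (FOG1, the partner of GATA factors) rose by 0.26 (0.049), and Bcl11a, a repressor of fetal globin genes that other tissues also use, fell from 1583 to 648 (-1.29, 2.4e-05). Zfpm1 was not called without P5 library 5 (0.19, edgeR adjusted p = 0.13), and the list then had 1 higher and 1 lower. Bcl11a was highest, not lowest, in P5 library 5.

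Of 17 genes of red-cell maturation and iron uptake, 16 were in the table and tested, and Ahsp was not analysed here. Of these 4 were higher, 5 were lower and 7 did not pass the test, with a median log2 fold change of -0.15. The most abundant members are used by many tissues. Prdx2, a peroxiredoxin, fell by 0.51 on the log2 scale, Car2, a carbonic anhydrase, rose by 1.03, and Tfrc, the transferrin receptor, rose by 1.38 (edgeR adjusted p = 3.9e-05, 0.00012 and 6.2e-05). With total count scaling the list had 4 higher and 1 lower, and without P5 library 5 it had 3 higher and 6 lower. Of 6 genes listed around Bpgm, 2 genes of glycolysis were higher. The 1 lower gene was Minpp1, a phosphatase outside glycolysis (log2 fold change -0.84, edgeR adjusted p = 3.2e-06). Pgk1, the phosphoglycerate kinase that acts on the same substrate, rose by 1.73 and Pkm, the pyruvate kinase, by 1.30 on the log2 scale (edgeR adjusted p = 8.8e-09 and 6.6e-08), each without overlap between the ages. For Pgam1, the related glycolytic mutase, the log2 fold change was 0.01 (edgeR adjusted p = 0.89).

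Markers of other cells of blood, marrow and vessels were counted in the same libraries, where 28.8% of all genes tested were higher and 28.4% lower at P12. All 8 endothelial genes were higher, with a median log2 fold change of 0.96 and summed normalized counts of 3216 to 4095 at P5 and 6656 to 7234 at P12. Kdr, Pecam1 and Cdh5, genes of the endothelial surface, rose by 1.07, 1.02 and 0.60 on the log2 scale. Of 13 neutrophil and marrow genes, 8 were higher and 2 lower, or 8 and 1 without P5 library 5 (median 0.69, summed 2627 to 3314 and 3957 to 5263), with rises of 0.74, 0.87 and 0.52 on the log2 scale for S100a9, Ngp and S100a8. The 2 lower genes were Mmp8 (-0.39) and Ctsg (-0.91), and Ctsg was not called without P5 library 5 (edgeR adjusted p = 0.16). Mpo (-0.29), Prtn3 (-0.05) and Elane (0.42) were not called, so that the list did not move as a whole. Of 7 B lymphoid genes, 5 were higher and 0 lower (median 1.45, summed 154 to 465 and 685 to 1334), with rises of 1.45 and 1.62 for Ighm and Cd79a. Of 6 platelet genes tested, 2 were higher and 0 lower (median 0.17). The normalized counts of all 8 platelet genes listed summed to 205 to 352 at P5 and 369 to 466 at P12. The log2 fold changes were 0.73 and 1.17 for Itga2b and Ppbp and 0.07, not called, for Pf4. Of 8 macrophage and leukocyte genes, 5 were higher and 0 lower (median 0.33, summed 1604 to 1981 and 2045 to 2717), with rises of 0.44, 0.32 and 0.33 for Csf1r, C1qc and C1qa. Of these 8, 2 were called without P5 library 5, and Csf1r, C1qc and C1qa were not (edgeR adjusted p = 0.074, 0.075 and 0.053). The summed counts of the 7 genes described here overlapped between the ages, at 20356 to 39287 and 20281 to 24894. Of the genes of these 5 lists, Gp6 and Treml1 (platelets) and Igll1 (B lymphoid cells) had 0 counts in at least 1 P5 library and the others were counted in every library, and their part in the values of the globin genes was not tested.

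**Figure D5:**
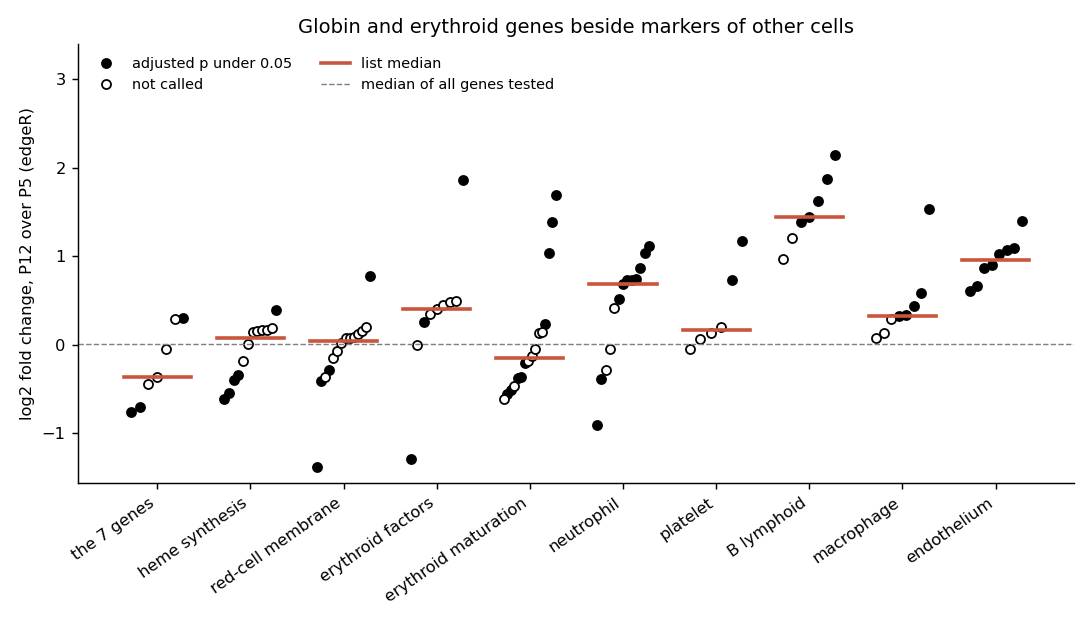
Log2 fold change, P12 over P5, from edgeR (y axis) for the genes of 10 lists (x axis), filled where the adjusted p was under 0.05, with list medians as bars and the median of all genes as a dashed line. The 7 genes have a median of -0.36, against 0.96 for endothelial and 1.45 for B lymphoid genes. The medians of the other red-cell lists are 0.04 (membrane), 0.41 (erythroid factors) and -0.15 (erythroid maturation).

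The sequences before the start sites of the globin genes are shown because both alpha genes share theirs. Of the 250 bases before the RefSeq start, Hba-a1 and Hba-a2 share an unbroken identical run of 247, and the longest run shared by Hbb-bs and Hbb-bt is 14 bases. RefSeq gives an entry for 6 of the 7 genes (Slc4a1 has none). The RefSeq starts of Hba-a1 and Hbb-bs lie inside the gene models of the deposited table, so that the stretches printed for these genes overlap the counted genes, as does part of that of Hbb-bt. The 110 bases before the start are printed 5′ to 3′ on the gene's strand, from RefSeq (GRCm38.p6), at chr7:103827929-103828038 for Hbb-bs and chr7:103813924-103814033 for Hbb-bt on the reverse strand and at chr11:32283562-32283671 for Hba-a1 on the forward strand, with matches on either strand to 4 motifs in capitals. These are CACCC (the core of the sites that KLF factors bind), CCAAT (the box bound by NF-Y), ATATAA (a form of the TATA box) and GATAA (a form of the GATA factor site):
Hbb-bs: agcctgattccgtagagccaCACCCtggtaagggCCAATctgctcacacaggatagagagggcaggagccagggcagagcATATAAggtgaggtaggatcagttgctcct
Hbb-bt: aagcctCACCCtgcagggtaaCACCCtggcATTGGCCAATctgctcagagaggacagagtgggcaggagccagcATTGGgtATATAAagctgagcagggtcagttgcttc
Hba-a1: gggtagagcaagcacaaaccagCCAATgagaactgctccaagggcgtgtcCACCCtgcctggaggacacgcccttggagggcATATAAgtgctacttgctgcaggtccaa

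Over all 250 bases and both strands, the 4 globin genes each held at least 1 match to all 4 motifs. Of 32851 RefSeq promoters of the same length, 52.0% held CACCC, 33.8% CCAAT, 9.1% ATATAA and 22.6% GATAA. The ATATAA began 30 bases before the start in Hbb-bs, 29 in Hbb-bt and 28 in Hba-a1. Alas2 held 3 CACCC and 1 GATAA matches and no match to the other motifs, and Bpgm held 3 CCAAT matches and no match to the other 3. These are matches of letters in a window, not measured binding, and they carry no test.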

How the data were processed

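RNA-seq libraries of first molar enamel organs from wt mouse pups at P5 and P12 (4 pools each) were analysed from 1 table. The authors deposited whole-number read counts per gene, not normalized, with gene names, coordinates and lengths. The labels' processing notes name CASAVA and mm39, but the coordinates are those of GRCm38: 54409 of 54532 gene identifiers are on the chromosomes of GENCODE M21, and 53499 have the same start and end there. The aligner, the counting program and its use of strand are not given in the sources used here. Columns were assigned to libraries by the titles in the sample labels.

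The main test was the quasi-likelihood test of edgeR 4.0.16 (R 4.3.3) with filterByExpr, TMM scaling and no covariates. P-values were adjusted over 16440 genes after Benjamini and Hochberg, at a threshold of 0.05. A normalized count was obtained by dividing a count by its library's effective size and multiplying by the mean of these sizes. DESeq2 1.42.0, which the study's methods name, limma-voom (limma 3.58.1), other scalings and filters, left-out libraries and summed gene copies were alternatives. Single genes and log2 ratios (pseudocount 1) were compared by two-sided exact permutation tests over 70 divisions of the libraries (smallest p 0.0286, scipy 1.17.1). No library was a duplicate, since counts differed beyond sampling noise in each of the 12 same-age pairs. The tests were tried on simulated counts first.

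The genes, lists and motifs were chosen with earlier results of these data known. The genes named are the 7, the 3 most abundant of a list, called genes of the lists of other globins, erythroid factors and membrane proteins, and the 5 genes most like the globins. Gata1, Klf1, the called genes of heme synthesis, and Klk4, Amtn and Odam were added with their values known. So were Minpp1 and the neutrophil genes Mmp8, Ctsg, Mpo, Prtn3 and Elane. Some genes of the lists are not reported here by name.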

Additional observations from a re-analysis of the deposited data

Results flagged for a closer look

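Of 124 groups of 4 libraries checked (named genes at each age and the ratios), 6 held a library set apart from the other 3 by a gap that takes up most of the group's range, and chance flags about 1 in 20 groups, or 6.2 here. Among the 7 genes this was Hbb-bs in P12 library 4, where the normalized count was 8421 and the other P12 libraries had 10367 to 10718. Sptb, the erythroid beta spectrin, had 555.7 in P5 library 5 against 768.5 to 769.2. The other 4 were Cygb in P12 library 4 (230.9 against 202.0 to 205.9), Itga2b in P12 library 2 (178.9 against 148.6 to 152.9), C1qa in P5 library 3 (233.7 against 216.0 to 218.0) and Col1a2 in P5 library 4 (325109 against 363910 to 371203). Without P12 library 4, the log2 fold change of Hbb-bs was -0.38 (edgeR adjusted p = 0.083), on the same side of the threshold as with all libraries.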

How the results depend on the processing

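Of the 7 genes, 3 were called in the edgeR fit, 5 with P5 library 5 and P12 library 4 both left out, 5 with the replicate block over 6 libraries (numbers 1, 3 and 4 at each age), and between 1 (without P12 library 2) and 4 (without P5 library 5) with each library left out in turn. Over all genes tested, the edgeR fit called 9411 of 16440, the fit without both libraries 9776 of 16667 and the block 7944 of 17163. Without P12 library 2 it was 8708 of 16629, and without P5 library 5 it was 8990 of 16793. With both libraries left out, Hbb-bs (-0.54), Hbb-bt (-0.84), Hba-a1 (-0.89) and Alas2 (-0.52) were lower and Bpgm (0.24) higher. The replicate numbers did not pair the libraries (correlations of deviations 0.04, -0.01 and -0.01, not every library correlating best with its own number), so the block is given here only. It added Hbb-bs and Alas2, which the same 6 libraries without the block also called, and kept Bpgm, which they did not. Over all alternatives 7944 to 11215 of all genes were called (8708 to 10030 with each library left out), against 9411. Slc4a1, not called in any fit, changed sign with limma-voom (0.051), total count scaling (0.34) and left-out libraries (-0.30 to 0.16), and Alas2 with total count scaling (0.014). Total count scaling called 8 of 12 genes of heme synthesis, 5 of 9 erythroid factors and 5 of 16 genes of red-cell maturation, against 11215 of 16440 genes tested. The 6 ratios kept their direction under a pseudocount of 0 or 10, per kilobase and with each library left out, where 3 libraries against 4 cannot reach the threshold. Depth limits what can be said of the listed globin genes other than the adult ones, 5 of which had 0 counts in every library.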
